A study of Rattus norvegicus with 35 samples.

Results

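Retinas of rats were compared 3 d after intraorbital transection of the left optic nerve (IONT 3 d) with retinas of naive rats measured in the same set of arrays. The comparison holds 4 of the 35 arrays of the series, IONT 3 d replicates 1 and 2 and naive replicates 4 and 5, taken by their labels and by a control probe set described below. All animals were adult female Sprague-Dawley rats with no transgene, the naive ones had no surgery, and each array carried RNA pooled from the left retinas of 4 different animals. A pool hides the spread between animals, so the p-values measure the spread between pools. The remaining arrays followed IONT earlier and later, up to 15 d, and a crush of the nerve (IONC) up to 7 d. Expression is given throughout as the log2 signal of a probe set, a group of short probes for 1 transcript, and a change is the log2 mean of IONT 3 d minus that of naive replicates 4 and 5.

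Retinal ganglion cells (RGCs) are the only neurons of the retina whose axons run in the optic nerve, so a cut through the nerve severs the axon of every one of them and leaves the other retinal neurons uncut. Axotomized neurons are known to lower the neurofilaments and other proteins of the mature axon and to switch on injury genes such as transcription factors, secreted peptides and small heat shock proteins. Axotomized RGCs later die, mainly by apoptosis. Müller cells and astrocytes become reactive after such a lesion, and microglia multiply and take up debris, with complement and lysosomal proteases among the genes they use.

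The arrays fell into 2 sets by the 3′ minus 5′ signal of the β-actin control probe sets, a measure of how far the signal falls off towards the 5′ end of a transcript. This difference was 2.61 to 3.65 on the log2 scale in 8 arrays (both arrays each of IONT 24 h, 3 d and 15 d, and naive replicates 4 and 5) and 1.53 to 1.93 in the other 27. IONT 3 d replicates 1 and 2 had 3.33 and 2.61, and naive replicates 4 and 5 had 3.19 and 2.98. Naive replicates 4 and 5 differed from naive replicates 1 to 3 in 2318 called probe sets, 1099 higher and 1219 lower, so only naive replicates 4 and 5 served as the controls. What the 2 sets are in the laboratory is not given in the sources used here. In the crush group at 12 h, replicate 2 stood apart from all other arrays, with a median Pearson correlation of 0.871 to them.

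The 2 arrays at 3 d differed from each other more than the 2 naive arrays did. Over 14217 genes, 612 differed by more than 1 log2 unit between IONT 3 d replicates 1 and 2, against 138 between naive replicates 4 and 5. The correlation over probe sets was 0.9894 between the 3 d arrays and 0.9949 between the naive arrays. Replicate 1 was closest to IONT 24 h replicate 2 (0.9917) and replicate 2 to IONT 15 d replicate 1 (0.9921). Ccl2, a chemokine that draws in monocytes, had 7.73 in replicate 1 and 3.22 in replicate 2 at 3 d, against 3.08 and 2.43 in the naive arrays. Also higher in replicate 1 were the immediate early factors Egr2 (5.67 and 2.76) and Fos (9.81 and 7.59), the proliferation genes Mki67 (5.85 and 3.37) and Ccna2 (6.56 and 3.79) and the microglial receptor P2ry12 (7.92 and 5.66). Among the genes higher in replicate 2 were keratins of surface epithelium, picked for this difference. Krt13 and Krt5 had 6.17 and 5.31 in replicate 1 and 9.10 and 7.73 in replicate 2, against 7.67 and 6.02 in naive replicate 4 and 7.71 and 5.50 in naive replicate 5. A gene with a large gap between the 3 d arrays is therefore given with both values, and its mean change rests mainly on 1 pool.

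With the 8 arrays of the set fitted together, 0 of 31042 probe sets (0%) were called in IONT 3 d against naive. Probe sets were called where limma gave an adjusted p under 0.01, the log odds of change, B, exceeded 0 and the groups differed at least 1.2-fold. In that fit 4347 probe sets had an unadjusted p under 0.05, 22 an adjusted p under 0.05, and the smallest adjusted p was 0.0136, with 4 residual degrees of freedom. All 35 arrays fitted together, with the same 4 arrays compared and the spread taken from every group, gave 296 calls, 204 higher (0.657% of probe sets) and 92 lower (0.296%). A fit of 34 arrays without replicate 2 of the crush group at 12 h gave 965, 658 higher and 307 lower, which included all 296. In these calls 113 genes were called by their main probe set with 35 arrays, 86 higher (0.605% of genes) and 27 lower (0.19%), and 472 with 34 arrays, 359 higher (2.53%) and 113 lower (0.795%). Counts of called list members below are to be read beside these shares of all genes.

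The calls below are those of the 35-array fit unless another is named, and its use for single genes was decided after the 8-array fit had been seen to call nothing. Each of the 296 calls is lost in the 8-array fit, where their adjusted p ran between 0.0136 and 0.42 and 285 had an unadjusted p under 0.05. The larger fits assume that the 3 d arrays vary like the other groups, whereas the median SD of a probe set within IONT 3 d was 0.104, against 0.055 within naive replicates 4 and 5 and 0.534 within the crush group at 12 h. Without naive replicate 4, 118 probe sets were called. Median centring of the arrays, which lowered every change by 0.146, gave 305 calls, 120 higher and 185 lower. The share of higher calls was thus 39.3% after centring and 68.9% without it.

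In all 296 called probe sets both arrays at 3 d lay beyond both naive arrays, which was so for 55.0% of all probe sets. Both lay beyond all 5 naive arrays of the series in 217 of the 296, against 36.7% of all probe sets. In 94 of the 296 the naive means of the 2 array sets differed by more than 1 log2 unit (31.8%, against 10.2% of all probe sets), and in 105 at least one mean lay under 3, where signals are near background. The median change was -0.02 over all probe sets and -0.01 over all genes.

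**Figure D1:**
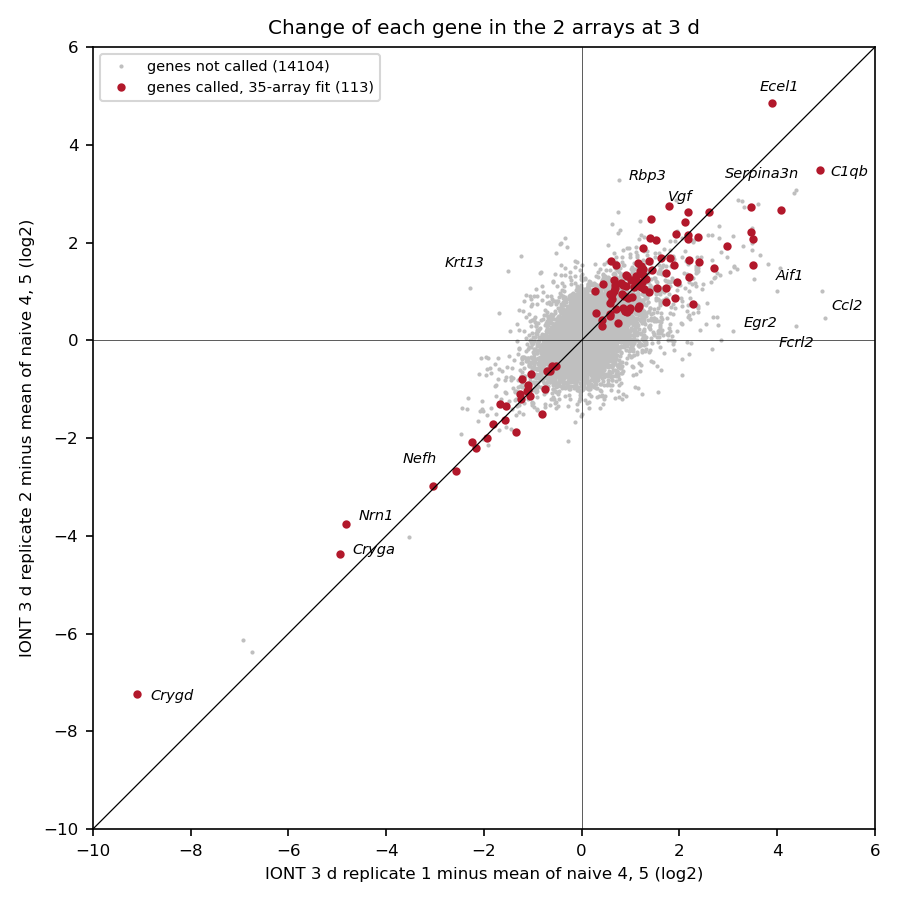
Change of each gene in IONT 3 d replicate 1 (x axis) and replicate 2 (y axis) against the mean of naive replicates 4 and 5, in log2 units. The 113 called genes (red) lie in the quadrants where both arrays moved the same way, while Ccl2, Fcrl2 and Egr2, which were not called, were high in replicate 1 only and Krt13 was above naive in replicate 2 and below it in replicate 1.

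RGC genes were lower at 3 d. Of 25 listed RGC markers 22 were measured. With 35 arrays 6 were called lower, beside 0.19% of all genes, and with 34 arrays 8, beside 0.795%. None was called higher by either fit. The median change of the list was -0.88, with -0.82 in replicate 1 and -0.91 in replicate 2, beside -0.01 over all genes. In 19 of the 22 both arrays at 3 d lay below both naive arrays, which held for 4341 of all 14217 genes. Since whole retinas were pooled, fewer RGCs and less RNA in each RGC cannot be told apart from these arrays. The study's text, citing anatomical work, places the loss of RGCs after this time, and cells were not counted in these pools.

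The largest decrease among RGC genes was that of Nrn1, which encodes neuritin, a protein that promotes growth of neurites. Nrn1 had 3.93 and 5.00 at 3 d, against 8.84 and 8.67 in the naive arrays, a change of -4.29 ± 0.42 (SE, adjusted p = 1.06e-06), or 19.6-fold lower. Both arrays at 3 d were far below all 5 naive arrays, and the 2 sets of naive arrays had like levels.

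The neurofilament subunits gave changes of different size. Nefh, the heavy subunit, had 7.93 and 7.81 at 3 d, against 10.51 and 10.47 in the naive arrays (change -2.62 ± 0.33, adjusted p = 3.82e-05), and its adjusted p in the 8-array fit was 0.0136. Nefl, the light subunit, was called on both of its probe sets. The one with the larger change had 7.81 and 7.84 at 3 d, against 10.25 and 10.11 in the naive arrays (-2.35 ± 0.28, adjusted p = 2.41e-05), and the brighter one changed by -2.18. Nefm, the medium subunit, had 9.49 and 9.29 at 3 d, against 10.26 and 10.02 in the naive arrays, and its change of -0.75 ± 0.32 was not called (adjusted p = 0.343). The difference between subunits was not tested. Prph, peripherin, another intermediate filament of long axons, had 6.09 and 6.10 at 3 d, against 8.14 and 8.08 in the naive arrays. Its change of -2.02 was called with 34 arrays (adjusted p = 0.0066) and not with 35 (0.0245).

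Among the markers that identify RGCs, Rbpms2, an RNA-binding protein, had 5.05 and 5.20 at 3 d, against 7.30 and 7.26 in the naive arrays (-2.16 ± 0.43, adjusted p = 0.00584). Sncg, γ-synuclein, an abundant axonal protein, had 9.42 and 9.78 at 3 d, against 11.02 and 11.14 (-1.48 ± 0.28, adjusted p = 0.00318). Thy1, a surface glycoprotein, had 6.83 and 7.03 at 3 d, against 8.16 and 8.59 (-1.45 ± 0.31, adjusted p = 0.00931). In each of these genes the groups did not overlap, as in every called probe set. The 3 genes were between 2.73 and 4.47 times lower than in naive retinas.

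Other RGC markers were not called on their brightest probe set. Rbpms had 6.15 and 6.69 at 3 d, against 8.53 and 8.68 in the naive arrays, a change as large as that of Rbpms2 but with a wider error (-2.19 ± 0.71, adjusted p = 0.134). A dimmer probe set of Rbpms was called lower, with means of 3.30 at 3 d and 4.31 in the naive arrays (-1.01, adjusted p = 0.00517). Slc17a6, the vesicular glutamate transporter of RGC synapses, had 8.81 and 8.52 at 3 d, against 9.90 and 9.72 (-1.14 ± 0.39, adjusted p = 0.164). Pou4f1, a transcription factor that specifies RGCs, lay between 2.71 and 3.19 in all 4 arrays, near background. Gap43, a growth cone protein, stood on the other side, with 9.98 and 9.69 at 3 d and 8.90 and 8.58 in the naive arrays, 2.14-fold higher but not called (adjusted p = 0.496). RGC markers thus held both the largest called decrease outside the lens genes and a gene above naive.

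**Figure D2:**
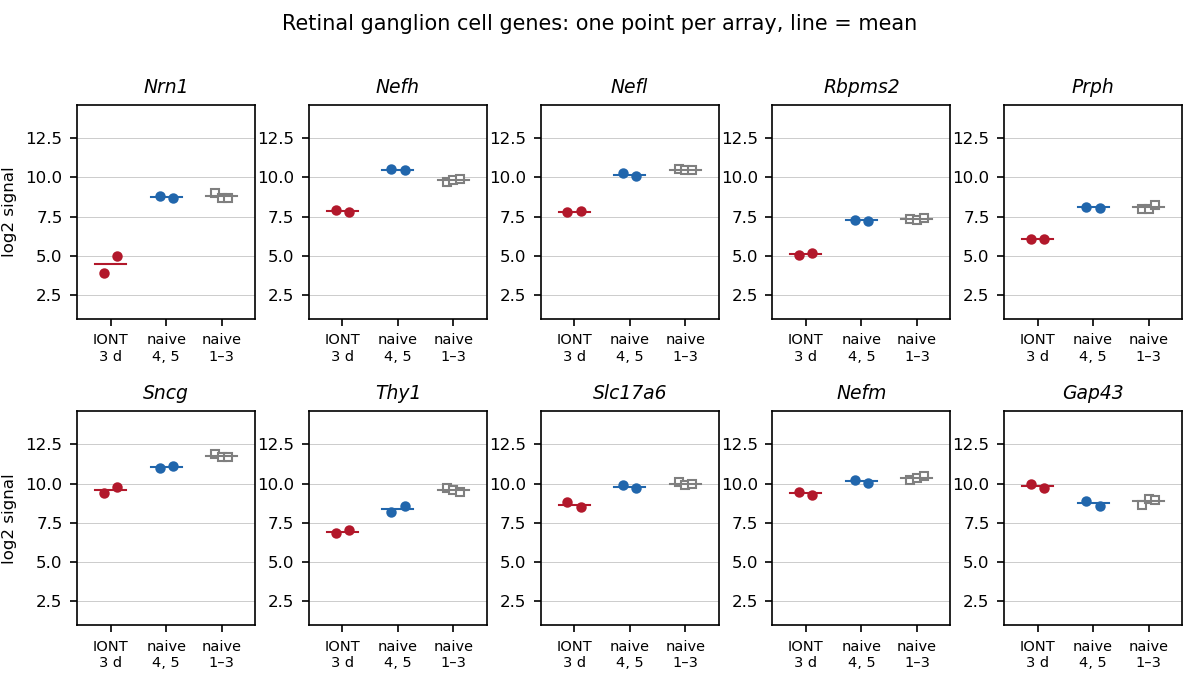
Log2 signal of 10 RGC genes, 1 point per array and a line at the mean, in IONT 3 d (red), naive replicates 4 and 5 (blue) and naive replicates 1 to 3 of the other array set (open grey squares). The points at 3 d lie below both naive groups in every panel but that of Gap43, and Nrn1 shows the widest gap.

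Beside RGC markers, called members of the list of neurofilaments and axonal cytoskeleton (22 of 24 measured, median -0.22) were Nefh, Nefl and Sncg, and none was called higher. Of 30 measured voltage-gated channel genes 1 was called, Kcnip2, a subunit that modulates A-type potassium channels, with 4.85 and 5.00 at 3 d and 5.95 and 6.26 in the naive arrays (-1.18 ± 0.23, adjusted p = 0.00408). Of 43 neurotransmitter receptor genes and 37 synaptic vesicle and SNARE genes 0 were called by either fit, with medians of -0.03 and -0.07. Their changes ran between -1.02 and 0.76 and between -1.37 and 0.67.

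Several genes that injured neurons are known to switch on were far higher at 3 d. Ecel1, an endopeptidase-like protein of damaged neurons, had 5.83 and 6.78 at 3 d, against 2.08 and 1.78 in the naive arrays, a change of 4.38 ± 0.60 (adjusted p = 0.000105). The naive level is near background, where a fold is uncertain, and the other probe set of Ecel1 stayed at background, with a mean of 2.03 at 3 d and 2.04 in the naive arrays. Hspb8, a small heat shock protein that helps clear misfolded protein, had 5.88 and 5.78 at 3 d, against 3.52 and 3.90 in the naive arrays (2.12 ± 0.38, adjusted p = 0.00208, and 0.0381 in the 8-array fit).

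Vgf, which encodes a precursor of secreted neuropeptides that neurotrophins induce, had 9.79 and 9.81 at 3 d, against 7.17 and 7.19 in the naive arrays. This change of 2.62 ± 0.35 (adjusted p = 7.35e-05, and 0.0429 in the 8-array fit) was 6.14-fold, and the 2 arrays of each group were nearly equal. The 250 bases before the start of Vgf at chr12:25277021-25277270 of the rat build GRCr8 (minus strand, RefSeq) are shown because Vgf is well measured in all arrays and this stretch holds a cAMP response element, TGACGTCA, in capitals, 90 to 83 bases before the start.
Vgf: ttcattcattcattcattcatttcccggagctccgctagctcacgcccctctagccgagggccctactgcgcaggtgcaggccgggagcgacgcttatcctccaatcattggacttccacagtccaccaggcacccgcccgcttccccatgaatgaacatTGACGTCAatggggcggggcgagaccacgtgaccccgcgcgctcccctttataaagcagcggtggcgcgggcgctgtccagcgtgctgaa
That element, searched after the data had been seen, stands on either strand within 250 bases before to 50 after the start of 1.83% of 33469 RefSeq promoters. It is a match of letters, and binding was not measured.

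Of 37 listed regeneration-associated and axotomy response genes 36 were measured, with a median change of 0.62 (0.57 in replicate 1 and 0.44 in replicate 2). With 35 arrays 1 was called higher, Ecel1, beside 0.605% of all genes, and with 34 arrays 7 were, beside 2.53%, none lower in either. Other called genes of neurons and growth lay outside the list. Csrp3, a muscle LIM protein also known from injured neurons, had 5.93 and 3.96 at 3 d, against 2.42 and 2.42 in the naive arrays (2.53 ± 0.48, adjusted p = 0.0039). Both arrays at 3 d were above naive, but replicate 1 stood 1.97 above replicate 2. Avil, an actin-binding protein known from peripheral sensory neurons, had 5.22 and 5.54 at 3 d, against 3.51 and 2.72 (2.26 ± 0.33, adjusted p = 0.000215). Etv4, a transcription factor of growth factor signalling, had 4.67 and 5.12 at 3 d, against 2.33 and 2.67 (adjusted p = 0.00773). Its naive arrays were near background, its change against naive replicates 1 to 3 was 1.31 (adjusted p = 0.0478), and its call was lost with centring and without any 1 of the 4 arrays. The groups did not overlap in Csrp3, Avil or Etv4, as in every called probe set. Rab15, a small GTPase of endosome recycling, had 6.48 and 6.57 at 3 d, against 5.23 and 5.23 (1.29 ± 0.19, adjusted p = 0.000215, and 0.0211 in the 8-array fit). Creb3, a transcription factor bound to the endoplasmic reticulum, had 8.48 and 8.44 at 3 d, against 7.54 and 7.53. Its change of 0.93 had one of the smallest adjusted p values of the 8-array fit, 0.0136, and was called with 34 arrays and not with 35 (adjusted p = 0.15).

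**Figure D3:**
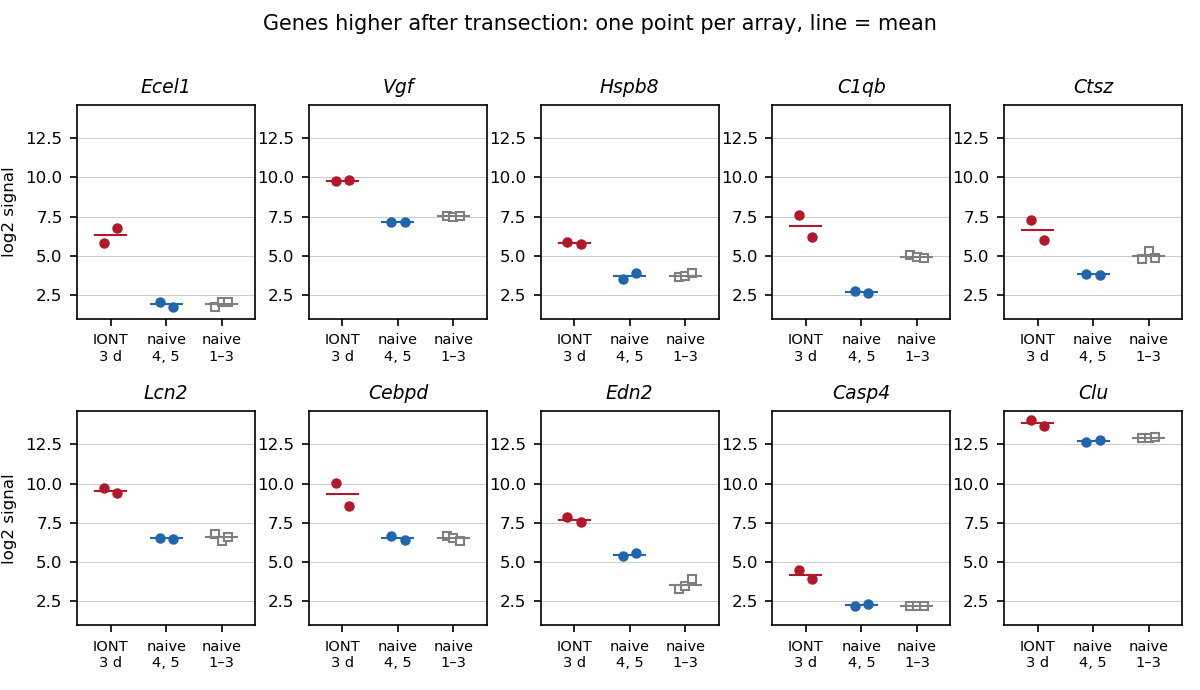
Log2 signal of 10 genes that were higher after transection, 1 point per array and a line at the mean, in IONT 3 d (red), naive replicates 4 and 5 (blue) and naive replicates 1 to 3 (open grey squares). In every panel both points at 3 d lie above all naive points, but replicate 1 is more than 1 log2 unit above replicate 2 in C1qb, Ctsz and Cebpd, and Lcn2 was called only with 34 arrays.

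Markers of microglia and macrophages had a median change above that of all genes, and more so in replicate 1. Of 30 listed markers 27 were measured. With 35 arrays 2 were called higher, beside 0.605% of all genes, and with 34 arrays 10, beside 2.53%. None was called lower by either fit. The median change was 1.91, with 2.34 in replicate 1 and 1.25 in replicate 2. The mean log2 signal of the list was 5.51 and 4.72 in the 3 d arrays, against 3.55 and 3.53 in the naive arrays. On average 24 of the 27 genes were above naive, beside 6683 of all 14217 genes. The defining markers did not move together. Aif1 (Iba1) had 7.44 and 5.20 at 3 d, against 3.87 and 3.39 in the naive arrays, and was called with 34 arrays and not with 35 (adjusted p = 0.0288). Ptprc (CD45) had 5.28 and 3.59 at 3 d, against 3.13 and 3.36, and was called by neither fit. Itgam and Cx3cr1 lay between 2.30 and 2.50 in all 4 arrays, near background, so these probe sets give no information on microglia here. The part that cell number has in these levels was not tested.

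The 3 chains of C1q, the complement protein that starts the classical pathway and that microglia make, had higher means at 3 d. C1qb had 7.59 and 6.21 at 3 d, against 2.79 and 2.65 in the naive arrays (4.18 ± 0.44, adjusted p = 3.59e-06). Its naive arrays were near background, so a fold is uncertain. Naive replicates 1 to 3 had 4.86 to 5.06, and the change against them was 1.94, with both 3 d arrays above all 5 naive arrays. C1qa had 8.87 and 8.06 at 3 d, against 4.71 and 5.83 in the naive arrays, and C1qc had 5.71 and 4.54, against 2.09 and 2.38. Both were called with 34 arrays only (adjusted p with 35 arrays 0.0403 and 0.0182). Over the complement list (23 of 30 genes measured) the median was 0.00, 13 members lay under 3 in all 4 arrays, and 2 were called higher with 35 arrays, C1qb and Clu, and 6 with 34.

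Cybb, the catalytic subunit of the phagocyte oxidase, had 5.42 and 4.18 at 3 d, against 2.47 and 2.94 in the naive arrays (2.09 ± 0.33, adjusted p = 0.000497). The groups did not overlap, as in every called probe set, although replicate 1 exceeded replicate 2 by 1.24. The 250 bases before its start at chrX:16065066-16065315 of GRCr8 (minus strand, RefSeq) are shown because 2 of the searched motifs fall in them, in capitals. They are the AP-1 site TGANTCA 166 to 160 bases before the start and the core of the interferon-stimulated response element, GAAANNGAA, 52 to 44 bases before it.
Cybb: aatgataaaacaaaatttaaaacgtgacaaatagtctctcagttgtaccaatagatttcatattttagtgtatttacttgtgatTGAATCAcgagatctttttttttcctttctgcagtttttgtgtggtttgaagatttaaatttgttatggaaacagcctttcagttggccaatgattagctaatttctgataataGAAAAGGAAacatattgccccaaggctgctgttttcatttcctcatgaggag
Of 13 list members called higher, 8 had an entry in the promoter table. The response element core was found on either strand in 2 of the 8 (Cybb and Kif20a), beside 9.71% of all 33469 promoters, and AP-1 in 1 (Cybb), beside 7.33%. The GAS motif TTCNNNGAA and the ATF4 motif TGATGNAA were in 0 of the 8, beside 8.87% and 3.98% of all promoters.

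Among lysosomal genes Ctsz, cathepsin Z, a carboxypeptidase of myeloid cells, was called higher. Ctsz had 7.29 and 6.05 at 3 d, against 3.83 and 3.82 in the naive arrays (2.84 ± 0.46, adjusted p = 0.000707). Replicate 1 was the higher of the 3 d arrays, as in C1qb. Of 28 listed cathepsins and lysosomal genes 25 were measured, with a median change of 0.58, and in 19 of them both arrays at 3 d were above both naive arrays, which held for 3318 of all 14217 genes. With 35 arrays 1 was called higher, beside 0.605% of all genes, and with 34 arrays 6, beside 2.53%, with none lower. Ctss, cathepsin S, had 9.55 and 9.21 at 3 d, against 8.06 and 7.97 (1.36 ± 0.42), and was called with 34 arrays only. Alox5ap, which delivers arachidonic acid to the enzyme of leukotriene synthesis, had 7.06 and 6.33 at 3 d, against 3.67 and 3.52 (3.10 ± 0.50, adjusted p = 0.000748). Tspo, a mitochondrial outer membrane protein that marks activated glia, had 7.19 and 6.13 at 3 d, against 4.27 and 4.15 (2.45 ± 0.49, adjusted p = 0.0054).

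In the list of reactive glia genes, glial markers were called only with 34 arrays. Of 28 listed, 26 were measured, with a median change of 0.89 (1.25 in replicate 1 and 0.74 in replicate 2). With 35 arrays 2 were called higher, Vgf and Edn2, beside 0.605% of all genes, and with 34 arrays 11, beside 2.53%, with none lower. Edn2, endothelin 2, a peptide known from stressed photoreceptors, had 7.85 and 7.59 at 3 d, against 5.38 and 5.57 in the naive arrays (2.24 ± 0.37, adjusted p = 0.00103). Gfap, the intermediate filament of astrocytes and reactive Müller cells, had 11.47 and 10.28 at 3 d, against 9.24 and 9.32. Its change of 1.60 ± 0.46 was called with 34 arrays only, and naive replicates 1 to 3 had 6.95 to 7.16. Lcn2, a siderophore-binding protein of reactive astrocytes, had 9.72 and 9.39 at 3 d, against 6.56 and 6.48. The groups of Lcn2 were far apart, and its change of 3.04 had an adjusted p of 0.0136 with 8 arrays, 0.0935 with 35 and 0.00945 with 34. Serpina3n, a protease inhibitor of reactive astrocytes, had 7.18 and 5.86 at 3 d, against 2.83 and 2.76 (3.73 ± 1.34, adjusted p = 0.2, and 0.00231 with 34 arrays).

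The markers of resting Müller cells held 0 calls with 35 arrays among 19 measured and 3 higher with 34, and their median change was 0.18. Rlbp1, their retinaldehyde-binding protein, had 11.82 and 11.94 at 3 d, against 11.99 and 11.96 in the naive arrays, and Glul, glutamine synthetase, had 12.80 and 12.73, against 12.71 and 12.77. A pair of secreted proteins with high signals were called outside the lists. Chi3l1, a chitinase-like protein of astrocytes and macrophages, had 11.95 and 11.84 at 3 d, against 10.13 and 10.17 in the naive arrays (1.74 ± 0.33, adjusted p = 0.00345). A2m, α2-macroglobulin, a protease inhibitor of the acute phase in rats, had 13.93 and 13.01 at 3 d, against 11.79 and 11.67 (1.74 ± 0.34, adjusted p = 0.00508). Chi3l1 and A2m were named after their values had been seen.

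Of 24 listed AP-1 and immediate early transcription factors 23 were measured, with a median change of 0.75, and 1 was called higher with 35 arrays and 3 with 34. The called member was Cebpd, a C/EBP factor of the acute phase response, with 10.03 and 8.60 at 3 d, against 6.66 and 6.38 in the naive arrays (2.79 ± 0.55, adjusted p = 0.00494). Fos had 9.81 in replicate 1 and 7.59 in replicate 2, against 7.06 and 7.18 in the naive arrays, and was called by neither fit. Stat3, the transcription factor of gp130 cytokines, had 9.34 in both 3 d arrays, against 7.35 and 7.94, and was called with 34 arrays only (1.69 ± 0.46). Over the 26 measured genes of the gp130 and JAK-STAT list, Stat3 included, the median was -0.01, with 11 of them under 3 in all 4 arrays. The 3 called higher with 34 arrays were Stat3, the cytokine Cntf (1.49) and the receptor Il6r (1.22), and 0 were called lower. Of 38 measured interferon response genes 0 were called by either fit, and the median of 0.34 was split between 0.64 in replicate 1 and -0.01 in replicate 2.

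A list of 46 death-related genes was picked from those the study's text names, which are a part of the genes it groups under cell death and were chosen on these arrays, so their direction is not independent evidence. Of these 40 were measured. With 35 arrays 3 were called higher, beside 0.605% of all genes, and with 34 arrays 11, beside 2.53%. None was called lower by either fit. In 21 of the 40 both arrays at 3 d lay above both naive arrays and in 6 below both, beside 3318 and 4341 of all 14217 genes. Their median change was 0.38, with a range between -0.63 and 3.07. Casp4, an inflammatory caspase known in rodents as caspase 11, had 4.49 and 3.94 at 3 d, against 2.21 and 2.36 in the naive arrays (1.93 ± 0.20, adjusted p = 1.85e-06). Clu, clusterin, a secreted chaperone, had 14.08 and 13.68 at 3 d, against 12.64 and 12.75 (1.19 ± 0.22, adjusted p = 0.0031). Ctsz, given above, was the remaining called member. Casp4 came up from a level near background, and Clu from one of the highest signals on the array.

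Receptors and mediators of the same list were higher in both arrays without a call by 35 arrays. Tnfrsf12a, the receptor of TWEAK, had 7.90 and 7.46 at 3 d, against 4.23 and 4.99 in the naive arrays (3.07 ± 0.78, adjusted p = 0.038). Tnfrsf1a, the main TNF receptor, had 6.85 and 5.95, against 4.55 and 4.41 (1.92 ± 0.54, adjusted p = 0.0671). Litaf, a factor of TNF induction, had 10.40 and 9.78, against 8.47 and 8.62 (1.54 ± 0.40, adjusted p = 0.043). Tnfrsf12a and Litaf were called with 34 arrays, and Tnfrsf1a was not. Gadd45a, a growth arrest gene, had 9.35 and 9.55 at 3 d, against 7.96 and 7.75, and Cdkn1a, the inhibitor p21, had 7.29 and 6.67, against 5.31 and 5.67. Both were called with 34 arrays only (adjusted p with 35 arrays 0.0151 and 0.0164).

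Other members hardly differed. The mean change was 0.00 for Casp2, an initiator caspase, -0.03 for Rb1, the retinoblastoma protein, 0.03 for Ahr, the dioxin receptor, and -0.02 for Aurka, a mitotic kinase. Over the Bcl-2 family (17 of 20 genes measured) the median was 0.06 and 0 were called with 35 arrays, and over the caspases and their inhibitors (15 of 19 measured) the median was 0.02 and Casp4 was the 1 gene called. Ccl2, whose value at 3 d came from replicate 1 alone, was not called (2.72 ± 1.79, adjusted p = 0.825). Of 42 listed cyclins and mitotic genes 40 were measured, with a median of 0.57 in replicate 1 and -0.01 in replicate 2. With 35 arrays 1 was called higher, beside 0.605% of all genes. It was the mitotic kinesin Kif20a (3.34 and 3.17 at 3 d, against 2.37 and 2.63 in the naive arrays). At a mean signal near background in both groups, the change of Kif20a of 0.76 ± 0.10 is small though called (adjusted p = 3.82e-05).

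**Figure D4:**
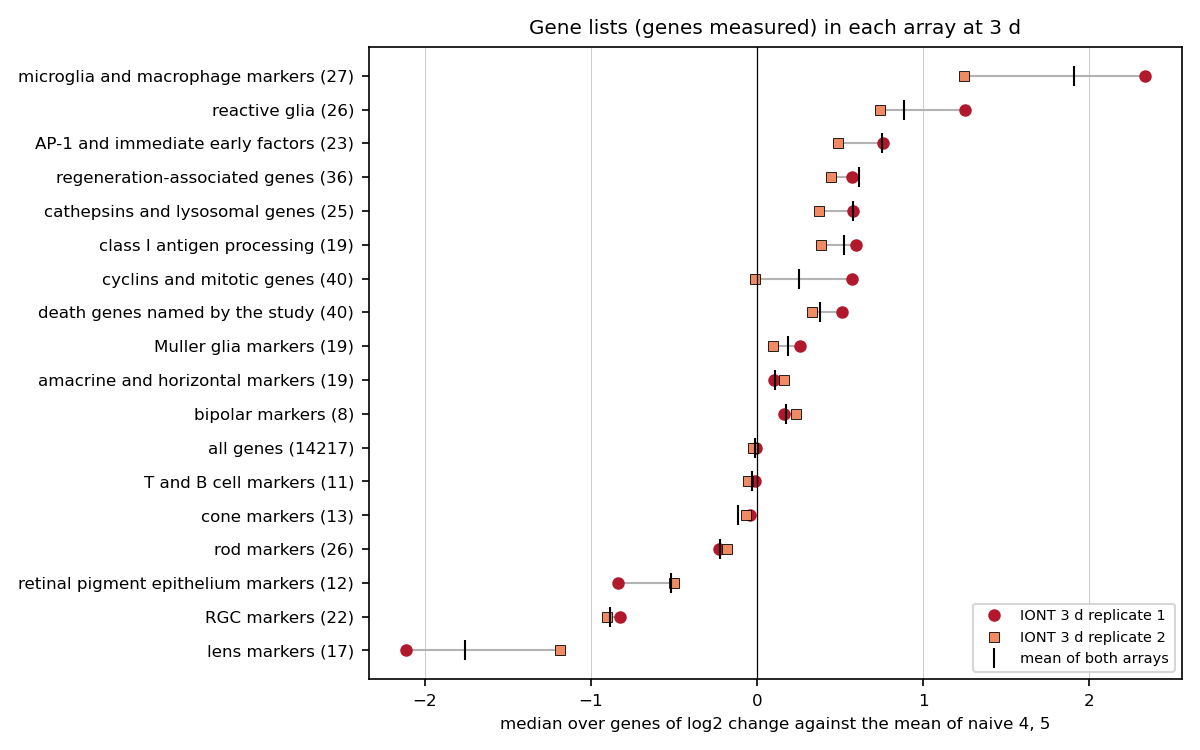
Median log2 change over the measured genes of 17 lists and of all genes, in IONT 3 d replicate 1 (red circles), replicate 2 (orange squares) and the mean of both (black bars), against the mean of naive replicates 4 and 5. Microglia and macrophage markers lie at 2.34 and 1.25 and reactive glia at 1.25 and 0.74, RGC markers at -0.82 and -0.91 and lens markers at -2.12 and -1.19, and all genes near 0.

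Lens genes, from a tissue next to the retina, stood below naive in the 3 d arrays. Of 19 listed lens genes 17 were measured. All 17 had a mean below naive at 3 d, whereas 6683 of all 14217 genes had a mean above it. With 35 arrays 2 were called lower, beside 0.19% of all genes. Their mean log2 signal was 8.70 and 9.35 at 3 d, against 11.22 and 11.94 in naive replicates 4 and 5 and 9.76 to 11.81 in naive replicates 1 to 3. The lens signal also varied between the other arrays of the set, with 7.87 and 10.76 at 24 h and 7.17 and 8.14 at 15 d. Crygd, a γ-crystallin of lens fibres, had 3.49 and 5.34 at 3 d, against 12.01 and 13.14 (-8.16 ± 1.57, adjusted p = 0.00413), and 5.93 to 9.87 in naive replicates 1 to 3. Cryga had 3.98 and 4.55 at 3 d, against 8.05 and 9.80 (-4.66 ± 0.90, adjusted p = 0.00432), and 4.28 to 5.46 in naive replicates 1 to 3, so the 3 d arrays and that naive set overlapped. Crygd and Cryga had the largest decreases of all called genes, and they stood beside other lens genes that were not called, such as Lim2 (6.48 and 7.55 at 3 d, against 8.69 and 9.19) and Mip (4.26 and 4.72, against 5.92 and 6.83). Cryaa, which the retina also expresses, had 14.11 and 14.16 at 3 d, against 14.19 and 14.53.

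Of 12 measured genes of the retinal pigment epithelium 0 were called by either fit, with a median of -0.52. Rpe65, the isomerase of the visual cycle, had 6.88 and 6.65 at 3 d, against 9.15 and 8.45 in the naive arrays (-2.03 ± 0.62, adjusted p = 0.104), and Ttr, transthyretin, had 9.89 and 9.71, against 11.59 and 10.87 (-1.43 ± 0.41, adjusted p = 0.0763). The mean log2 signal of the list was 5.65 and 5.73 at 3 d, against 6.67 and 6.18 in naive replicates 4 and 5 and 5.60 to 5.96 in naive replicates 1 to 3. How much of either tissue was left on a dissected retina is not given in the sources used here, and its part in the result was not tested.

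Few genes of other retinal neurons were called. Of 26 measured rod markers 2 were called lower, the exchanger Slc24a1 (10.71 and 11.15 at 3 d, against 11.99 and 11.88 in the naive arrays, change -1.01 ± 0.20, adjusted p = 0.00583) and the transducin subunit Gnb1 (12.37 and 12.45, against 13.04 and 12.92, change -0.57 ± 0.11, adjusted p = 0.00345). The mean log2 signal of rod markers was 11.77 and 12.04 at 3 d, against 12.09 and 12.29, and their median change was -0.22. Of 19 amacrine and horizontal, 8 bipolar and 13 cone markers 0 were called with 35 arrays, with medians of 0.11, 0.17 and -0.11. With 34 arrays 1 cone marker was called lower, the blue opsin Opn1sw (6.23 and 6.80 at 3 d, against 8.32 and 8.19 in the naive arrays), and 1 higher, the transducin subunit Gnb3, beside 1 rod marker called higher, the actin bundler Fscn2 (0.85). Defining markers lay close to naive, such as Pde6b of rods (13.98 and 13.99 at 3 d, against 14.13 and 14.22), Prkca of rod bipolar cells (7.07 and 7.00, against 7.19 and 7.17), Gad1 of GABAergic amacrine cells (12.60 and 12.26, against 12.36 and 12.28) and Gnat2 of cones (9.11 and 9.11, against 8.67 and 9.08). All rod, bipolar and amacrine markers measured had a signal of 3 or more in at least 1 of the 4 arrays, as had 11 of 13 cone and 18 of 19 Müller cell markers, so genes of the labelled tissue, retina, were present.

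Some genes of other tissues were near background and others were not. Ckm of muscle lay between 2.35 and 2.37 and Mog of myelin between 2.25 and 2.32 in all 4 arrays, and 10 of 11 T and B cell genes lay under 3 in all 4. Mbp, myelin basic protein, had 5.13 and 4.96 at 3 d, against 3.27 and 4.28 in the naive arrays, and 7.01 to 7.34 in naive replicates 1 to 3. Hbb, a haemoglobin chain, had 9.74 and 10.34 at 3 d, against 11.36 and 10.47, and was not called (adjusted p = 0.768).

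Of 20 measured endothelial and mural genes 1 was called higher, Vwf, the von Willebrand factor of vessel walls, with 7.12 and 7.17 at 3 d, against 5.44 and 5.55 in the naive arrays (1.65 ± 0.24, adjusted p = 0.000212). The 2 arrays of each group were nearly equal, and Vwf was 3.14-fold higher at 3 d. Of 28 iron handling and antioxidant genes 1 was called higher with 35 arrays, beside 0.605% of all genes, and 7 with 34, beside 2.53%. The call with 35 arrays was Prdx6, a peroxiredoxin (8.41 and 8.38 at 3 d, against 6.81 and 7.56, change 1.21 ± 0.22, adjusted p = 0.00264). For Prdx6 naive replicates 1 to 3 had 8.87 to 8.95, above the 3 d arrays. Cytosolic ribosomal proteins, of which 41 were measured, had 0 calls with 35 arrays, 12 higher with 34 and a median of 0.37, of which 0.146 is the shift that median centring takes off. Their mean log2 signal was 12.03 and 11.96 at 3 d, against 11.58 and 11.65 in naive replicates 4 and 5. Naive replicates 1 to 3 had 12.00 to 12.05, so the 3 d arrays were not above that naive set.

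Among the 30 genes with the largest called changes, 15 each way, 25 had both arrays at 3 d beyond all 5 naive arrays. This held for 217 of the 296 called probe sets and 36.7% of all probe sets. The exceptions among the 30 were Rbfox2, Tspan4, Cryga, Kndc1 and Cltrn. The 30 were picked among calls with both 3 d arrays beyond naive replicates 4 and 5, so a high count is partly built in. Rbfox2, a splicing factor, had 4.52 and 5.50 at 3 d, against 2.28 and 3.20 in naive replicates 4 and 5, but 8.81 to 9.13 in naive replicates 1 to 3, so the sign of its change of 2.27 depends on the naive arrays used. Tspan4, a tetraspanin, had 6.32 in both arrays at 3 d, against 4.11 and 4.20, and 5.90 to 6.39 in naive replicates 1 to 3. LOC102553824, an uncharacterised locus, had 6.63 and 5.22 at 3 d, against 2.63 and 2.50 (3.37 ± 0.61, adjusted p = 0.0026).

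On the lower side, Irx4, a homeobox factor that marks RGC subsets in the chick, had 2.06 and 2.11 at 3 d, against 4.84 and 5.35 in the naive arrays (-3.01 ± 0.39, adjusted p = 6.28e-05). The 3 d level was at background, so the size of this change has a floor. Zbtb18, a zinc finger repressor, had 3.78 and 4.20 at 3 d, against 6.48 and 5.96 (-2.23 ± 0.30, adjusted p = 7.61e-05). Prkar2a, a regulatory subunit of protein kinase A, had 2.87 and 3.35, against 6.05 and 4.96 (-2.39 ± 0.30, adjusted p = 3.82e-05). For Prkar2a, Zbtb18, Cars1 and Acsl6 the called probe set was not the brightest of the gene, and their other probe sets were not called. The remaining genes of the 15 were H4f3, Kndc1, Cars1, Cltrn, Erich3 and Acsl6, with changes between -1.97 and -1.59, and with naive signals between 4.14 and 7.76 in replicates 4 and 5.

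Against the other time points of the array set, 3 d differed from 24 h in 0 probe sets with 8 arrays (2710 at an unadjusted p under 0.05) and in 125 with 35 arrays (0.403% of probe sets), 51 higher and 74 lower at 3 d. It differed from 15 d in 1 probe set with 8 arrays (4104 at an unadjusted p under 0.05) and in 315 with 35 arrays (1.01%), 64 higher and 251 lower at 3 d. These comparisons share the 3 d arrays with the comparison against naive, so their changes are not independent of it. Without IONT 3 d replicate 1 the 24 h comparison held 352 calls, and without IONT 24 h replicate 2 it held 234. Without IONT 3 d replicate 2 the 15 d comparison held 579, and without replicate 1 it held 207.

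Several RGC genes had fallen between 24 h and 3 d. Nrn1 had 7.92 and 8.60 at 24 h, 3.93 and 5.00 at 3 d and 2.25 and 3.09 at 15 d, and 3 d was lower than 24 h by 3.79 ± 0.42 on the log2 scale (adjusted p = 6.38e-06). Nefh had 10.20 and 10.09 at 24 h, 7.93 and 7.81 at 3 d and 5.97 and 6.13 at 15 d. Nefl, on its probe set with the larger change, had 9.47 and 9.82 at 24 h, 7.81 and 7.84 at 3 d and 7.12 and 6.86 at 15 d, and Prph had 8.44 and 8.69, 6.09 and 6.10, and 3.63 and 2.51. Nrn1, Nefh, Nefl and Prph were each called lower at 3 d than at 24 h, and Nefh (1.82) and Prph (3.02) were called higher at 3 d than at 15 d.

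Slc17a6 and Nefm, which were not called at 3 d against naive, were called against 15 d. Slc17a6 had 9.78 and 9.76 at 24 h, 8.81 and 8.52 at 3 d and 3.49 and 3.37 at 15 d, so 3 d was above 15 d by 5.24 ± 0.39 (adjusted p = 7.34e-09). It was the 1 probe set called with 8 arrays (adjusted p = 0.0034). Nefm had 9.96 and 9.93 at 24 h, 9.49 and 9.29 at 3 d and 6.04 and 6.28 at 15 d (3 d minus 15 d 3.23 ± 0.32, adjusted p = 8.84e-07). Tmem163, a zinc transporter of synaptic vesicles, had 7.13 and 7.14 at 24 h, 7.24 and 7.59 at 3 d and 3.92 and 4.27 at 15 d (3 d minus 15 d 3.32 ± 0.39, adjusted p = 1.05e-05).

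Ecel1, Hspb8, Vgf and C1qb had their highest mean of the set at 3 d. Ecel1 had 2.07 and 2.08 at 24 h, 5.83 and 6.78 at 3 d and 2.96 and 3.20 at 15 d, called higher at 3 d than at either time (3 d minus 24 h 4.23, 3 d minus 15 d 3.23). Hspb8 had 3.92 and 4.05 at 24 h, 5.88 and 5.78 at 3 d and 3.13 and 3.07 at 15 d, and was called against 15 d. Vgf had 7.94 and 8.07 at 24 h, 9.79 and 9.81 at 3 d and 8.38 and 7.85 at 15 d, and C1qb had 3.84 and 4.85, 7.59 and 6.21, and 5.88 and 5.04. Vgf and C1qb were called higher at 3 d than at 24 h, by 1.80 and 2.55. Csrp3, called against both, was near background at the other times, with 2.41 to 2.43 at 24 h and 15 d. Wfdc1, a secreted protease inhibitor domain protein, had 6.12 and 5.59 at 24 h, 7.77 and 7.95 at 3 d and 6.74 and 7.60 at 15 d (3 d minus 24 h 2.00 ± 0.30, adjusted p = 0.000462).

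Other genes were low at 3 d and higher before or after. Homer1, a scaffold of synapses with an activity-induced short form, had 4.91 and 4.87 at 24 h, 2.83 and 3.42 at 3 d and 4.51 and 5.02 at 15 d on its called probe set (3 d minus 24 h -1.77 ± 0.18, adjusted p = 1.52e-06). The naive arrays had 4.33 and 3.67 on that probe set, so the 3 d arrays were the lowest of the set there. It was the 1 of 5 Homer1 probe sets called against 24 h, and not the brightest. Against naive it changed by -0.88 at 3 d, whereas the other Homer1 probe sets changed by 0.10 to 0.41, the brightest by 0.37. Fgfbp1, a carrier of fibroblast growth factors made by epithelia, had 2.14 and 2.15 at 3 d, against 6.94 and 3.52 at 24 h, and the 24 h array with 6.94 also had the keratins Krt13 and Krt5 at 10.78 and 10.51. The largest decreases of 3 d against 15 d were in Cnpy1, a neural developmental gene, with 2.02 and 3.32 at 3 d and 5.04 and 5.61 at 15 d (-2.66 ± 0.30, adjusted p = 5.53e-06), and in Ccdc191, with 4.14 and 4.25 at 3 d and 6.47 and 6.53 at 15 d (-2.30 ± 0.25, adjusted p = 3.88e-06). Psd, Lrguk, Txnrd2 and Arhgap10 followed with changes between -2.04 and -1.89, and all 6 had naive means under those at 15 d. Psd had 3.53 in replicate 1 and 5.52 in replicate 2 at 3 d, and 6.48 and 6.64 at 15 d. Its mean change against 15 d thus rests mainly on replicate 1.

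**Figure D5:**
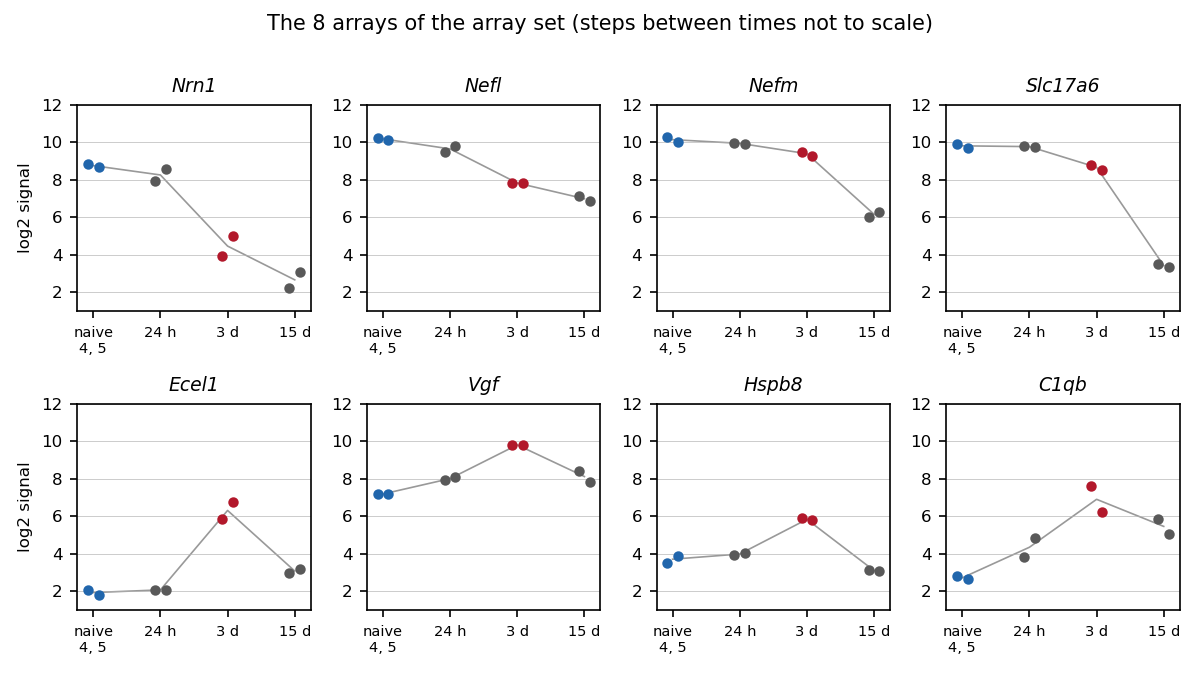
Log2 signal of 8 genes in the 8 arrays of the array set, 1 point per array and a line through the means, in naive replicates 4 and 5 and at 24 h, 3 d (red) and 15 d after IONT, with times not to scale. Nrn1 and Nefl drop between 24 h and 3 d, Nefm and Slc17a6 between 3 d and 15 d, and Ecel1, Vgf, Hspb8 and C1qb are highest at 3 d.

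Transection and crush were set against each other at 3 d through the naive arrays of their own array sets, as the change after IONT minus the change after IONC. With the 10 arrays concerned 28 probe sets were called (0.0902%), 19 with the higher change after IONT and 9 with the lower, and 39 with 35 arrays. The count rested on single arrays: it was 340 without IONT 3 d replicate 1 and 234 without replicate 2, 158 without naive replicate 5, and between 1 and 9 without any one of naive replicates 1 to 3 or of the 3 crush arrays. After median centring it was 0. Vgf had 9.79 and 9.81 after IONT, with its naive arrays at 7.17 and 7.19, and 8.63, 8.38 and 8.46 after IONC, with its naive arrays at 7.53, 7.50 and 7.54. Its change was thus 2.62 after IONT and 0.97 after IONC, a difference of 1.65 ± 0.10 (adjusted p = 0.00375, and 0.114 with 35 arrays).

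Nefl, on the same probe set as above, had 7.81 and 7.84 after IONT, with its naive arrays at 10.25 and 10.11, and 9.19, 9.40 and 9.30 after IONC, with its naive arrays at 10.49 to 10.51. Its change was -2.35 after IONT and -1.20 after IONC, a difference of -1.15 ± 0.09 (adjusted p = 0.00794, and 0.226 with 35 arrays). The brighter probe set of Nefl was not called for this difference. Both lesions went the same way in Vgf and on this probe set of Nefl, and the difference in size was called with 10 arrays and not with 35. For Ecel1 the 2 lesions were alike in level, with 5.83 and 6.78 after IONT and 6.20, 6.12 and 5.74 after IONC, and the difference of the changes was 0.33 ± 0.40 (adjusted p = 0.588). Nrn1 had 3.93 and 5.00 after IONT, against 6.04, 6.46 and 6.15 after IONC, and the difference of -1.71 ± 0.42 was not called (adjusted p = 0.114). IONT 3 d and IONC 3 d lie in different array sets, so lesion and array set cannot be told apart except through the naive arrays.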

How the data were processed

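RNA pooled from 4 retinas was hybridised to each Affymetrix RAE230.2 array. The authors deposited log2 values made with GCRMA, which subtracts background by probe sequence, applies quantile normalization and summarises each probe set; which versions of GCRMA and limma they used is not stated in these sources. GCRMA pulls low signals together, so folds against a group near background are uncertain. Of 31099 probe sets 57 controls were left out and 31042 tested; 20826 had 1 gene symbol in the 2016 platform annotation, 436 several and 9780 none. For lists, the probe set brightest on average over all arrays stood for its gene (14217 genes).

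Groups were fitted with limma 3.58.1 in R 4.3.3 (lmFit, eBayes, Benjamini-Hochberg over all tested probe sets; statmod 1.5.0 for array weights), with the thresholds of the study's methods. The main fit held the 8 arrays of the array set; it made no call, so the calls of single genes come from the planned fit of all 35 arrays, a basis chosen after that was seen. Alternatives changed the arrays, naive arrays, scaling, moderation, weights, thresholds and filter, and left out each array. The scripts were tested on simulated data.

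The genes named were the 15 largest increases and 15 largest decreases against naive among called probe sets with 1 symbol whose 3 d arrays lay on 1 side of both naive arrays, the 6 largest each way of the other comparisons, up to 4 called members of each list, defining markers and death-related genes of the study; others are said to be chosen after seeing values or illustrate the replicate gap or the fits. The members and the 44 lists were chosen with earlier results of these data known. The adjusted p is that of limma throughout, SE is that of its 35-array fit (10 arrays for the lesion difference), and the number of arrays limits the precision. Promoter sequences are RefSeq's on GRCr8, with no entry for 5 of 13 genes.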

Additional observations from a re-analysis of the deposited data

Results flagged for a closer look

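Cybb had 2.94 in naive replicate 5, against 2.44 to 2.47 in the other 4 naive arrays, a gap of 0.943 of the whole range (Dixon's critical value 0.71). It was the 1 of 51 named genes with such a gap, and chance gives one in about 1 of 20 groups. Both arrays at 3 d (5.42 and 4.18) were above it.

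For 9 genes the change against naive differed between IONT 3 d and IONC 3 d by the test of the difference in the 10-array fit. The difference was positive in 6. For Dzip3, Bcas3, C2cd2l, Nefl and Hs2st1 it was called on 1 probe set that was not the brightest of the gene. Against naive, the brightest changed at 3 d after IONT by 0.18 for Dzip3, 0.34 for Bcas3, -0.44 for C2cd2l, -2.18 for Nefl and 0.44 for Hs2st1, the last opposite in sign to the -0.86 of its called probe set. Mpv17l, a peroxisomal and mitochondrial membrane protein, differed by 1.71 ± 0.15 (change 1.24 after IONT and -0.46 after IONC, adjusted p = 0.00949), and Vgf by 1.65 ± 0.10 (2.62 and 0.97). Dzip3, a ubiquitin ligase, differed by 1.38 ± 0.11 (1.42 and 0.04, adjusted p = 0.00794), and Ccdc9b by 0.94 ± 0.08 (0.96 and 0.02, adjusted p = 0.00794). Lime1, a membrane adaptor of lymphocytes, differed by 0.93 (1.07 and 0.14) and Bcas3, a cytoskeletal protein, by 0.93 (1.00 and 0.07).

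The difference was negative in C2cd2l, a lipid transfer protein, at -1.34 ± 0.11 (change -0.95 after IONT and 0.40 after IONC), in Nefl at -1.15 ± 0.09 (-2.35 and -1.20) and in Hs2st1, a heparan sulfate sulfotransferase, at -0.99 ± 0.08 (-0.86 and 0.13), each with an adjusted p of 0.00794. With 35 arrays the adjusted p was 0.000212 for Ccdc9b, 0.016 for Dzip3, 0.0288 for Bcas3 and 0.0679 or more for C2cd2l, Mpv17l, Vgf, Lime1, Nefl and Hs2st1, and with centred arrays 0 probe sets were called.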

How the results depend on the processing

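The calls depended on the arrays in the fit. For IONT 3 d against naive, the 8-array fit called 0, and 296 were called with 35 arrays, 965 with 34 arrays, 621 with all 5 naive arrays as 1 group and 2586 against naive replicates 1 to 3. Array set as a term gave the same 296 by construction, because naive is the only group in both sets. Within 8 arrays the count was 22 at an adjusted p under 0.05 without B, 10 with a variance trend and robust moderation, 1 with centred arrays, 3 after cyclic loess and 12 with a signal filter, and 0 to 8 leaving out 1 array. The 296 calls of 35 arrays became 0 with 8 arrays, 965 with 34, 574 after cyclic loess, 637 at an adjusted p under 0.05 without B, 186 at 2-fold and 195 with the filter, and 118 (without naive replicate 4) to 344 leaving out 1 array.

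Against 24 h, the 8-array count of 0 became 125 with 35 arrays, 1 at an adjusted p under 0.05 and 0 to 37 leaving out 1 array; the 125 became 322 with 34 arrays and 123 to 352. Against 15 d, the 8-array count of 1 became 315 with 35 arrays, 30 at an adjusted p under 0.05, 3 with centred arrays and 0 to 10 leaving out 1 array; the 315 became 755 with 34 arrays and 207 to 579. The 28 calls of the lesion difference became 250 with 34 arrays, 253 at an adjusted p under 0.05, 0 with centred arrays and 1 to 340 leaving out 1 array.

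Rbfox2 changed sign, to -1.43 with all 5 naive arrays and -3.90 against naive replicates 1 to 3. Of 63 named gene results, 50 kept their direction and call with centred arrays and 13 kept only their direction; leaving out naive replicate 4, 16 of 39 kept their call and the rest only their direction. The causes were not tested. No paired analysis was possible because the arrays share no replicate numbers, against naive (1 and 2 at 3 d, 4 and 5 in naive), which also bars one of the lesion difference. IONT 24 h, 3 d and 15 d share numbers 1 and 2, which nothing in the labels ties to a common source, and the deviations of same-numbered arrays correlated at 0.07 between 3 d and 24 h and -0.16 between 3 d and 15 d. The titles of the 24 h arrays run the other way, with B for replicate 1 and A for replicate 2. The sign of the correlation with 24 h is therefore uncertain. A replicate block over the 6 arrays of IONT 24 h, 3 d and 15 d, added after seeing the data, called 0 against 24 h and 0 against 15 d, and with the 15 d numbers crossed 0.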

Other observations

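Some lists outside the comparison's main genes had medians above that of all genes. The 8 measured MHC class II genes, which present antigen, had a median change of 1.06 and the 19 measured genes of class I antigen processing one of 0.52, with 0 called by either fit. Annexins and S100 proteins, calcium-binding proteins of membranes, had a median of 0.81 over 18 genes, with 0 called with 35 arrays and 3 higher with 34. Their mean log2 signal was 8.07 and 8.01 at 3 d, against 7.37 and 7.36 in naive replicates 4 and 5. Naive replicates 1 to 3 had 7.67 to 8.33, so the 3 d arrays lay within the range of that naive set.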
